A study of Mus musculus with 10 samples.

Results

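The 9 genes examined here encode basic leucine zipper factors of the MAF, cap'n'collar (CNC) and BACH families, namely the large MAF gene Maf, the 3 small MAF genes Maff, Mafg, and Mafk, the 3 CNC genes Nfe2, Nfe2l1, and Nfe2l2, and the 2 BACH genes Bach1 and Bach2. They were taken by name, with no threshold on their values, from the 55487 genes of the count tables. All 9 passed the filter on low counts that left 22596 genes to be tested, and all 9 are also in the authors' matrix of stage means. Their level was measured by sequencing nuclear RNA from HM-1 cells, a mouse embryonic stem (ES) cell line, along a differentiation in serum toward blood. There were 2 libraries at each of 5 stages and no stage carried a genetic change. ES cells were undifferentiated and cultured with LIF. Hemangioblast (HB) cells were FLK1+ cells selected with magnetic beads from embryoid bodies at 3 d. The first and second stages of the hemogenic endothelium (HE1, KIT+ TIE2+ CD41-, and HE2, KIT+ TIE2+ CD41+) and hematopoietic progenitors (HP, KIT+ TIE2- CD41+) were sorted after a further 2.5 d of blast culture of FLK1+ cells. All stages come from 1 cell line, and the p-values measure the spread between the libraries of a stage, which the study calls biologically independent replicates.

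Small MAF proteins bind DNA but lack a domain that activates transcription, and what they do at a site depends on their partner. With the CNC proteins p45 NF-E2 (encoded by Nfe2), NRF1 (Nfe2l1), or NRF2 (Nfe2l2) they activate genes at MAF recognition and antioxidant response elements, and with BACH1 or BACH2 they repress genes at the same kind of element. Large MAF proteins such as c-MAF (Maf) have an activation domain of their own. In blood, the p45 NF-E2 dimer is known for platelet formation and for its binding at the globin loci, BACH1 is a repressor that heme releases from DNA, and BACH2 is best known from lymphocytes.

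Between 24920434 and 58782055 read pairs were counted per library, and the 9 genes held between 11 and 17668 counts each. Levels are given in CPM, the read count scaled by the TMM-corrected size of the library, in the order of replicates 1 and 2, and levels of different genes are compared only in CPM per kilobase of exon. A fold change is on the log2 scale with its standard error, and a gene was called when edgeR's quasi-likelihood test gave a Benjamini-Hochberg adjusted p under 0.05 over all tested genes and the change was at least 2-fold. HE1 replicate 2 stands apart. The summed level of 5 ES cell markers was 67.0 CPM in it against 6.31 CPM in HE1 replicate 1, 2000 and 1920 CPM in the ES libraries, 98.8 and 74.5 CPM in HB, and no more than 6.05 CPM in HE2 and HP, and its 6 endothelial markers summed to 1730 CPM against 2910 CPM. The main comparisons of the 9 genes with HE1 are therefore also given without this library, a choice made after the data were seen. The markers of the sorts followed the stages in part. FLK1 (Kdr) rose from 2.43 and 2.70 CPM in ES to 957 and 1280 CPM in HB, and TIE2 (Tek) fell from 564 and 294 CPM in HE1 to 61.5 and 64.2 CPM in HP, whereas CD41 (Itga2b) was already at 227 and 127 CPM in HE1, which was sorted as CD41-. In bulk libraries, fewer cells that express a gene and less RNA per cell cannot be told apart.

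Of the 9 genes, 4 rose from ES to HB (Maf, Maff, Nfe2, and Bach2) and 0 fell, where 11.5% of all tested genes rose and 17.3% fell. From HB to HE1, 2 rose (Maf and Mafk) and 0 fell, against 12.7% and 8.19% of all tested genes. From HE1 to HE2, Nfe2 rose and Maf and Maff fell, where 3.26% of the tested genes rose and 5.39% fell. Without HE1 replicate 2, Nfe2 was the 1 gene of the 9 still called in that comparison, and the shares of all tested genes were 1.56% and 1.1%. None of the 9 was called between HE2 and HP by edgeR, limma-voom, or DESeq2, and 1, Bach2, had an unadjusted p under 0.05 in edgeR, against 7.89% of all tested genes. In this comparison edgeR called 0% of the tested genes in either direction, with 1783 genes at an unadjusted p under 0.05, while limma-voom called 35 higher and 27 lower and DESeq2 108 and 193. Over the longer step from HE1 to HP, Nfe2 rose and Maf, Maff, and Bach2 fell, with 5.35% of all tested genes higher and 11.2% lower, and with HE1 replicate 2 left out the fall of Maf was no longer called, against 3.87% and 6.86%. From ES to HP, 5 rose (Maf, Mafk, Nfe2, Bach1, and Bach2) and 0 fell, against 16.7% and 21.9%. Without the fold condition, 7, 4, 5, 4, and 8 of the 9 passed from ES to HB, HB to HE1, HE1 to HE2, HE1 to HP, and ES to HP, where 40.4%, 32.3%, 13.2%, 24.9%, and 51.6% of all tested genes did, and at a threshold of 4-fold 2, 1, 1, 1, and 3 were called, against 17.8%, 11.5%, 3.99%, 9.23%, and 25.4%. The comparisons share libraries, so these counts are not separate evidence.

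**Figure D1:**
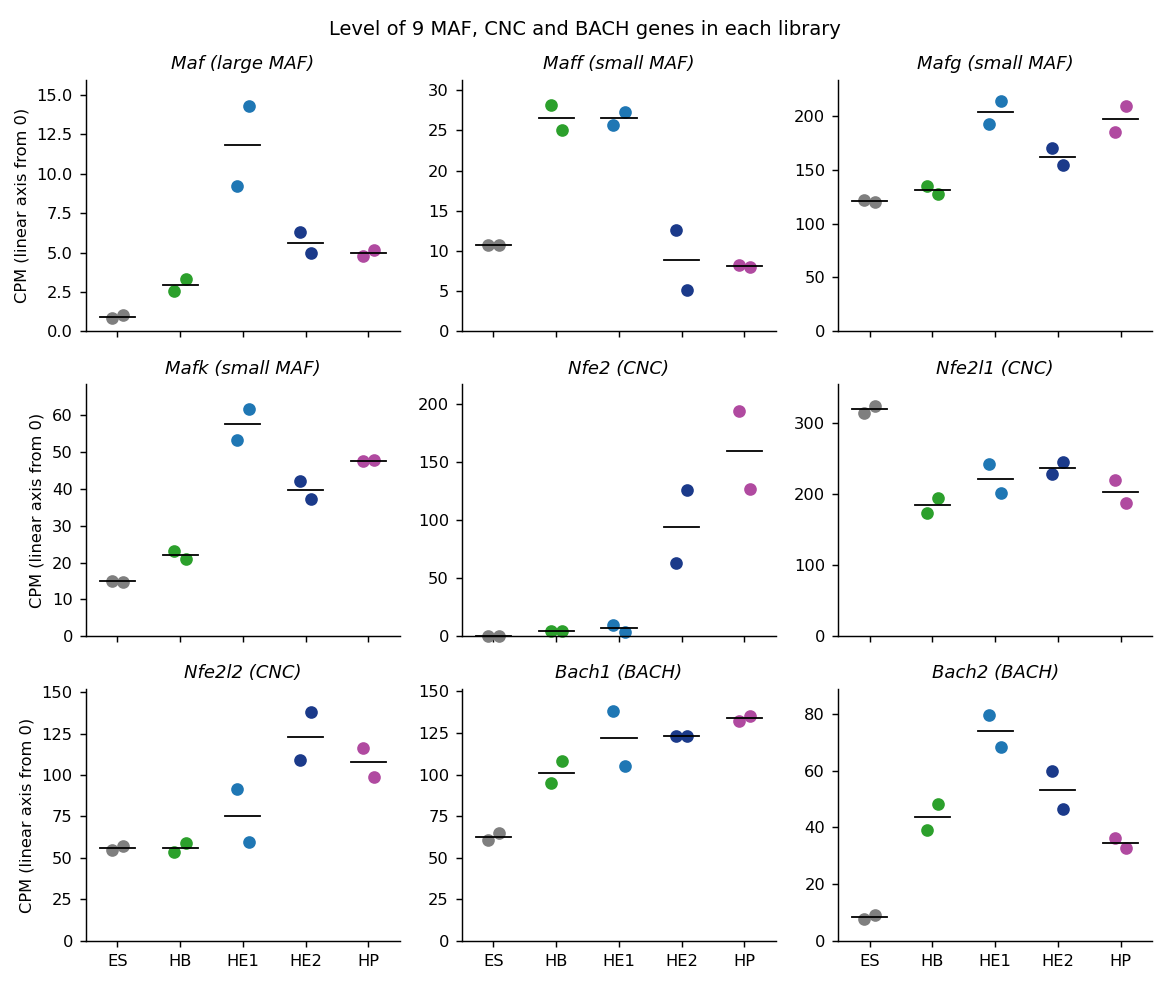
Level of each of the 9 genes in CPM on linear axes that start at 0, by stage. Points are the 2 libraries of a stage and lines are their means. Nfe2 stays at or below 10.0 CPM through HE1 and reaches 63.5 to 194 CPM in HE2 and HP, Maf and Bach2 peak in HE1, and Nfe2l1 is highest in ES.

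Maf, the large MAF gene of the group, encodes c-MAF, a factor known from lens, macrophages, and T cells (chr8:115682942-115707794, minus strand, mm10, as are all gene positions here). It was at 0.834 and 1.03 CPM in ES, 2.55 and 3.30 CPM in HB, 9.25 and 14.3 CPM in HE1, 6.28 and 4.95 CPM in HE2, and 4.77 and 5.15 CPM in HP. Both HE1 libraries were above all others, both ES libraries were below all others, and HE2 and HP overlapped. Maf rose 3.15-fold from ES to HB (log2 fold change 1.65 ± 0.33, edgeR adjusted p = 0.00277) and 4.03-fold from HB to HE1 (2.01 ± 0.32, edgeR adjusted p = 0.00116). The second rise was kept without HE1 replicate 2 (1.66, edgeR adjusted p = 0.00518). The fall from HE1 to HE2 (-1.07 ± 0.31, edgeR adjusted p = 0.0469) lay at the threshold, was called in only 1 of the 10 fits that left out a library, and without HE1 replicate 2 was -0.72 (adjusted p = 0.231), and the fall from HE1 to HP (-1.25 ± 0.31, edgeR adjusted p = 0.0154) was also lost without it (-0.90, adjusted p = 0.0925). In the order HE1, HE2, HP, HB, ES, neither HE2 and HP nor HP and HB differed beyond the threshold (edgeR adjusted p = 1 and 0.0947). Because c-MAF is a macrophage gene, the 6 macrophage markers were read beside it. They summed to between 12.9 and 50.4 CPM in all libraries, 14.6 and 12.9 CPM in HB against 50.4 and 26.2 CPM in HE1, with C1qa at 0 everywhere and C1qb at 0.297 CPM or less. Most of the sum was Mrc1, at 42.3 and 10.6 CPM in HE1 against 6.91 and 6.76 CPM in HB, and Cd68, at 5.02 to 14.8 CPM throughout. Mrc1 was not called from HB to HE1 (1.95, edgeR adjusted p = 0.0667) but was without HE1 replicate 2 (2.63, adjusted p = 0.0254), and like Maf fell from HE1 to HP (-2.62, edgeR adjusted p = 0.0303). Csf1r rose from 0.0331 and 0.0282 CPM in HB to 0.379 and 1.29 CPM in HE1 (edgeR adjusted p = 0.00259) and to 5.93 and 9.38 CPM in HP, and Adgre1 was at 0.231 CPM or less up to HE1 and at 1.12 and 2.26 CPM in HP. Csf1r thus rose with Maf from HB to HE1 and was higher in HP, where Maf was lower. Their part in the values of Maf was not tested.

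Among the small MAF genes, Maff, Mafg, and Mafk followed different courses. Maff (chr15:79346621-79359076, plus strand), known as an inducible small MAF gene, was at 10.7 CPM in both ES libraries, at 28.2 and 25.1 CPM in HB, 25.7 and 27.3 CPM in HE1, 12.6 and 5.21 CPM in HE2, and 8.28 and 8.01 CPM in HP. The HB and HE1 libraries overlapped and stood above all others, and the HE2 libraries differed more than 2-fold from each other. Maff rose 2.49-fold from ES to HB (log2 fold change 1.32 ± 0.32, edgeR adjusted p = 0.00755). It fell 2.97-fold from HE1 to HE2 (-1.57 ± 0.32, edgeR adjusted p = 0.017), with -1.53 and an adjusted p of 0.0717 without HE1 replicate 2, and 3.25-fold from HE1 to HP (-1.70 ± 0.32, edgeR adjusted p = 0.00443), where the call was kept without that library (-1.65, adjusted p = 0.022). HP against ES was not called (-0.39 ± 0.32, edgeR adjusted p = 0.331). HE2 against ES was not called either (-0.26 ± 0.32, edgeR adjusted p = 0.524), but without HE2 replicate 1 it was -1.04 and called lower (adjusted p = 0.00403), and over the libraries left out in turn it ran up to 0.23.

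Mafk (chr5:139791513-139802653, plus strand) encodes a small MAF protein known as the p18 partner of p45 NF-E2. It was at 15.1 and 14.7 CPM in ES, 23.2 and 20.9 CPM in HB, 53.3 and 61.8 CPM in HE1, 42.3 and 37.2 CPM in HE2, and 47.5 and 47.8 CPM in HP. No HE1, HE2, or HP library was as low as any ES or HB library. The rise from HB to HE1 was 2.61-fold (log2 fold change 1.38 ± 0.15, edgeR adjusted p = 0.000126) and was kept without HE1 replicate 2 (1.28, adjusted p = 0.000623). From ES to HP it came to 3.20-fold (1.68 ± 0.15, edgeR adjusted p = 9.63e-06). The difference between ES and HB (0.57 ± 0.15, edgeR adjusted p = 0.0119) and that between HE1 and HE2 (-0.53 ± 0.15, adjusted p = 0.0412) were under 2-fold, and the second was -0.43 without HE1 replicate 2 (adjusted p = 0.182). Mafg (chr11:120625117-120633600, minus strand), which like Mafk is expressed in megakaryocytes, varied least of the 3, from 122 and 120 CPM in ES over 135 and 127 CPM in HB to 192 and 214 CPM in HE1, 170 and 154 CPM in HE2, and 185 and 209 CPM in HP. None of its differences reached 2-fold. The difference from HB to HE1 was 0.63 ± 0.14 (edgeR adjusted p = 0.00645), or 0.56 without HE1 replicate 2, and that from ES to HP 0.70 ± 0.14 (adjusted p = 0.0016). Mafg shares 124 bases with Sirt7 on the same strand, where a read pair was counted for both genes, and Sirt7 went from a mean of 18.2 CPM in ES to 55.7 CPM in HP. The part of Sirt7 in the counts of Mafg was not tested. Mafk overlaps Tmem184a by 169 bases on the opposite strand, and the counting used strand.

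Per kilobase of exon, Mafg had the highest level of the small MAF genes in all 10 libraries. Its share of their summed level was 73.1% ± 0.0804 (SD, n = 2) in ES, then 59.5% ± 0.943 and 59.1% ± 0.0947 for HB and HE1, and 68.1% ± 3.19 and 69.5% ± 1.89 for HE2 and HP. Maff held the second place in HB with 26.1% ± 0.675 against 14.4% ± 0.268 for Mafk, and Mafk held it from HE1 on, with 24.1% ± 0.649, 24% ± 0.648, and 24.2% ± 1.37 from HE1 over HE2 to HP. The share of Maff was then 16.7% ± 0.554, 7.86% ± 3.84, and 6.24% ± 0.524. The ratio of Mafk to Maff went from 0.548 and 0.554 in HB to 3.81 and 3.97 in HP. The shares are given as a description and were not tested.

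The starts of 4 of these genes, the 3 small MAF genes and Nfe2l2, hold the letters of an antioxidant response element, the kind of site to which small MAF and CNC dimers bind. They are shown because they hold these letters. RefSeq (GRCm38.p6) windows from 250 bases before to 50 bases after a gene start were searched on both strands for the core TGACNNNGC, and 12.4% of 32851 windows held it. Of the 9 genes, 7 had windows (all but Maf and Nfe2), 13 in all, and the core was found in 4 of them, at 4 genes. No window of Nfe2l1, Bach1, or Bach2 held it, and neither did the other windows of Maff. Below are the 250 bases before the start, read 5' to 3' on the strand of the gene, with the core in capitals. The windows are chr15:79346371-79346620 (+) for Maff, chr11:120633548-120633797 (-) for Mafg, chr5:139791286-139791535 (+) for Mafk, and chr2:75704664-75704913 (-) for Nfe2l2. In Mafg and Mafk the core lies on the opposite strand, so its complement is in capitals.
Maff: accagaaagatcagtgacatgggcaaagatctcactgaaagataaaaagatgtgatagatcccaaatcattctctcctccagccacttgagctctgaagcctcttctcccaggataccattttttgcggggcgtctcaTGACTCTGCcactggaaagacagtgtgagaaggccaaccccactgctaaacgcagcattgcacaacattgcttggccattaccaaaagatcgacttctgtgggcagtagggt
Mafg: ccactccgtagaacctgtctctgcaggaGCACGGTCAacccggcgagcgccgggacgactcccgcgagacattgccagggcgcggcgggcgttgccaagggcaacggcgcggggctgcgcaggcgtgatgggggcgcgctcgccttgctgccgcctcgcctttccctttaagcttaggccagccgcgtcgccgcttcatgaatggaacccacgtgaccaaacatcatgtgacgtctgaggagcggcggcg
Mafk: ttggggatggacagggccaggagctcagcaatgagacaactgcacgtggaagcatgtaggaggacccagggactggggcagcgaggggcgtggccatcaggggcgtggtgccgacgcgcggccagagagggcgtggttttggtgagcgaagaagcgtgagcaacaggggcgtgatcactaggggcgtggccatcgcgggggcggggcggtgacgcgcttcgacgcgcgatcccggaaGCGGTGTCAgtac
Nfe2l2: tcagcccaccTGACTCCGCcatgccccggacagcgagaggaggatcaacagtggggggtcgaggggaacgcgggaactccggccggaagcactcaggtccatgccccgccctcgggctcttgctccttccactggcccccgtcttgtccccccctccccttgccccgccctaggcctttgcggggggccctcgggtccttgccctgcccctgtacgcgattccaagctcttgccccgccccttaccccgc
The core began 112 bases before the start in Maff, 222 in Mafg, 13 in Mafk, and 240 in Nfe2l2. Of the other motifs searched on both strands, TGCTGA, the flank with which MAF proteins make contact, occurs in 19.5% of all windows and in windows of Bach1, Mafk, and Nfe2l1. TGACGTCA was found in 1.79% of all windows and at Maff. TGAGTCA (5.2% of all windows) occurred in none of the 13. These matches are letters in a window and no binding was measured.

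**Figure D2:**
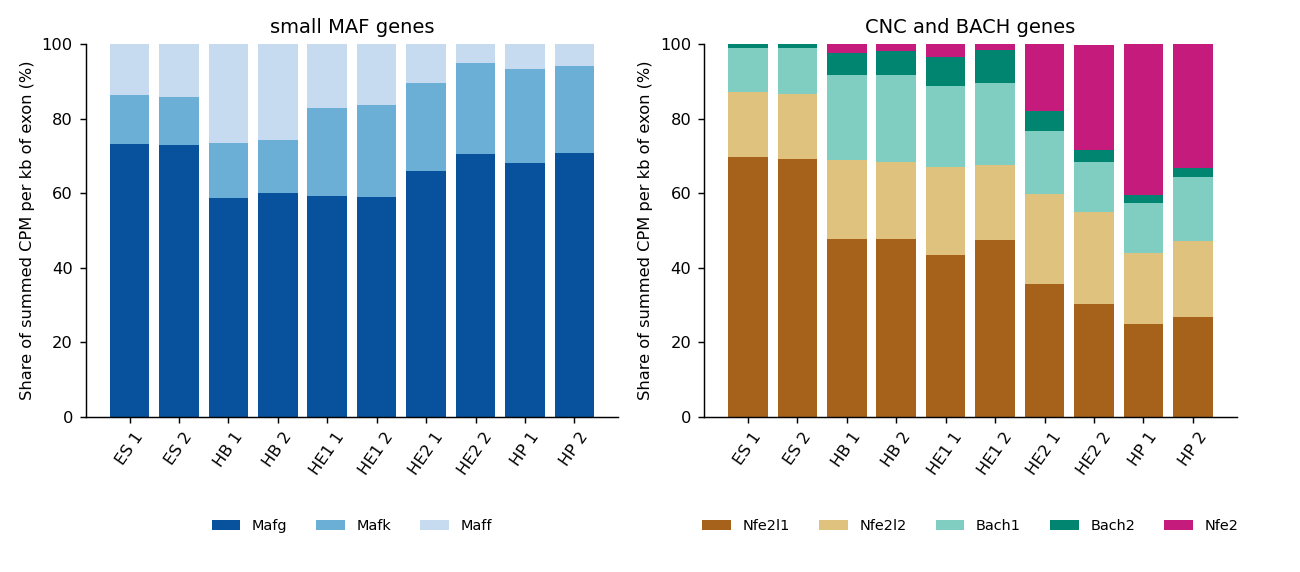
Share of each gene in the summed CPM per kilobase of exon (linear axis, 0 to 100%), for each library in the order of the stages. Left, the small MAF genes, where Maff takes 26.6% and 25.7% in HB and Mafk 25.2% and 23.3% in HP. Right, the CNC and BACH genes, where Nfe2 takes 0.187% and 0.123% in ES and 40.4% and 33.1% in HP.

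The largest change of the 9 genes was that of Nfe2, the CNC gene for p45 NF-E2 (chr15:103248212-103258403, minus strand). It was at 0.461 and 0.316 CPM in ES (26 and 11 counts), 4.73 and 4.45 CPM in HB, 10.0 and 3.83 CPM in HE1, 63.5 and 126 CPM in HE2, and 194 and 127 CPM in HP. The ES libraries were below all others, those of HB and HE1 overlapped, and all 4 libraries of HE2 and HP stood above the rest. Nfe2 rose 11.4-fold from ES to HB (log2 fold change 3.51 ± 0.56, edgeR adjusted p = 0.000664), to a level below 5 CPM. No further change was seen from HB to HE1 (0.58 ± 0.44, edgeR adjusted p = 0.335), where the estimate ran from -0.30 without HE1 replicate 1 to 1.13 without HE1 replicate 2. The rise from HE1 to HE2 was 13.8-fold (3.79 ± 0.45, edgeR adjusted p = 0.00133) and remained at 3.24 without HE1 replicate 2 (adjusted p = 0.0116). From HE2 to HP the libraries did not overlap but the difference was not called (0.76 ± 0.40, edgeR adjusted p = 0.744). From ES to HP it amounted to 397-fold (8.63 ± 0.59, edgeR adjusted p = 1.66e-06). Markers of several blood lineages moved with Nfe2. The 6 erythroid markers summed to 488 and 235 CPM in HE1, 2000 and 1620 CPM in HE2, and 4340 and 2350 CPM in HP, and the 6 megakaryocyte markers to 232 and 129, 548 and 551, and 500 and 406 CPM at the same stages. The sum of the 5 early blood markers went likewise from 84.0 and 71.8 over 490 and 896 to 993 and 826 CPM. Their part in the rise of Nfe2 was not tested.

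Nfe2l1 (chr11:96817414-96829968, minus strand) encodes NRF1, which activates proteasome genes when the proteasome is impaired. It was at 313 and 324 CPM in ES, 173 and 194 CPM in HB, 242 and 201 CPM in HE1, 228 and 245 CPM in HE2, and 219 and 187 CPM in HP. It was the only gene of the 9 with its highest libraries in ES, and its other 4 stages lay close together. The difference from ES to HB (log2 fold change -0.80 ± 0.15, 1.74-fold, edgeR adjusted p = 0.00203) and that from ES to HP (-0.65 ± 0.15, adjusted p = 0.0045) were under 2-fold, and no pair of neighbours among HE2, HE1, HP, and HB in the order of its means was told apart (edgeR adjusted p from 0.527 to 0.66). Nfe2l2 (chr2:75675513-75704641, minus strand), the gene for NRF2, the main activator of antioxidant genes, was at 54.5 and 57.3 CPM in ES, 53.8 and 58.8 CPM in HB, 91.3 and 59.7 CPM in HE1, 109 and 138 CPM in HE2, and 116 and 99.0 CPM in HP. ES and HB overlapped, HE2 and HP overlapped, and all libraries of HE2 and HP were above those of the earlier stages. Against ES, Nfe2l2 was 1 of 5 of the 9 genes higher in HE2, where 16.3% of all tested genes were, and rose 2.21-fold (1.14 ± 0.21, edgeR adjusted p = 0.000937), which fell short of 2-fold without HE2 replicate 2 (0.96), and was 1.93-fold higher in HP (0.95 ± 0.20, adjusted p = 0.00288), short of 2-fold. From HB to HE1 the difference was 0.42 (edgeR adjusted p = 0.135), and without HE1 replicate 2 it was 0.70 (adjusted p = 0.0194). From HE1 to HE2 it was 0.71 ± 0.20 (edgeR adjusted p = 0.0463), with 1.07 without HE1 replicate 1 and 0.43 without HE1 replicate 2.

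Bach1 (chr16:87698945-87733346, plus strand) encodes a heme-sensing repressor of Hmox1 and other antioxidant genes. It was at 60.6 and 64.7 CPM in ES, 95.0 and 108 CPM in HB, 138 and 105 CPM in HE1, 123 CPM in both HE2 libraries, and 132 and 135 CPM in HP. All libraries after ES were above those of ES, and those of HB and HE1 overlapped. Bach1 rose 2.13-fold from ES to HP (log2 fold change 1.09 ± 0.16, edgeR adjusted p = 0.000205), of which the difference between ES and HB was 0.69 ± 0.15 (edgeR adjusted p = 0.00481). No neighbours among HB, HE1, HE2, and HP in the order of its means differed beyond the threshold with all libraries (edgeR adjusted p of 0.209 or more), while without HE1 replicate 2 HB and HE1 differed by 0.45 (adjusted p = 0.0407). Bach2 (chr4:32238804-32586108, plus strand), a repressor best known for its role in B cells and T cells, was at 7.56 and 9.29 CPM in ES, 39.1 and 48.3 CPM in HB, 79.6 and 68.3 CPM in HE1, 59.8 and 46.5 CPM in HE2, and 36.2 and 32.7 CPM in HP. Both HE1 libraries were above all others, HB and HE2 overlapped, and HP lay below HB but far above ES. Bach2 rose 5.20-fold from ES to HB (2.38 ± 0.20, edgeR adjusted p = 9.79e-06) and fell 2.15-fold from HE1 to HP (-1.10 ± 0.19, edgeR adjusted p = 0.00237). Without HE1 replicate 2 that fall was -1.21 (adjusted p = 0.00605), and without HE1 replicate 1 it was -0.96, just under 2-fold. The difference from HB to HE1 was 0.76 ± 0.19 (edgeR adjusted p = 0.0113, and 0.87 without HE1 replicate 2) and that from HE2 to HP -0.63 ± 0.19 (adjusted p = 0.283). The 5 B lymphoid markers summed to 13.1 and 14.5 CPM in ES, 12.6 and 11.2 CPM in HB, 15.9 and 13.0 CPM in HE1, 10.6 and 7.14 CPM in HE2, and 2.08 and 4.48 CPM in HP, and after ES Pax5 was at 0.132 CPM or less. Ebf1 made up most of the sum in all libraries but HP replicate 2, at 14.1 and 8.85 CPM in HE1 against 1.55 and 2.19 CPM in HP, and like Bach2 it fell from HE1 to HP (-2.62, edgeR adjusted p = 0.000594). Their part in the values of Bach2 was not tested. Bach2 spans 347 kb, its RefSeq start lies 178.6 kb downstream of its start in the count tables, and within it the short genes Bach2it1 and Gm24371 lie on the same strand, at stage means of at most 1.49 and 0.41 CPM.

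**Figure D3:**
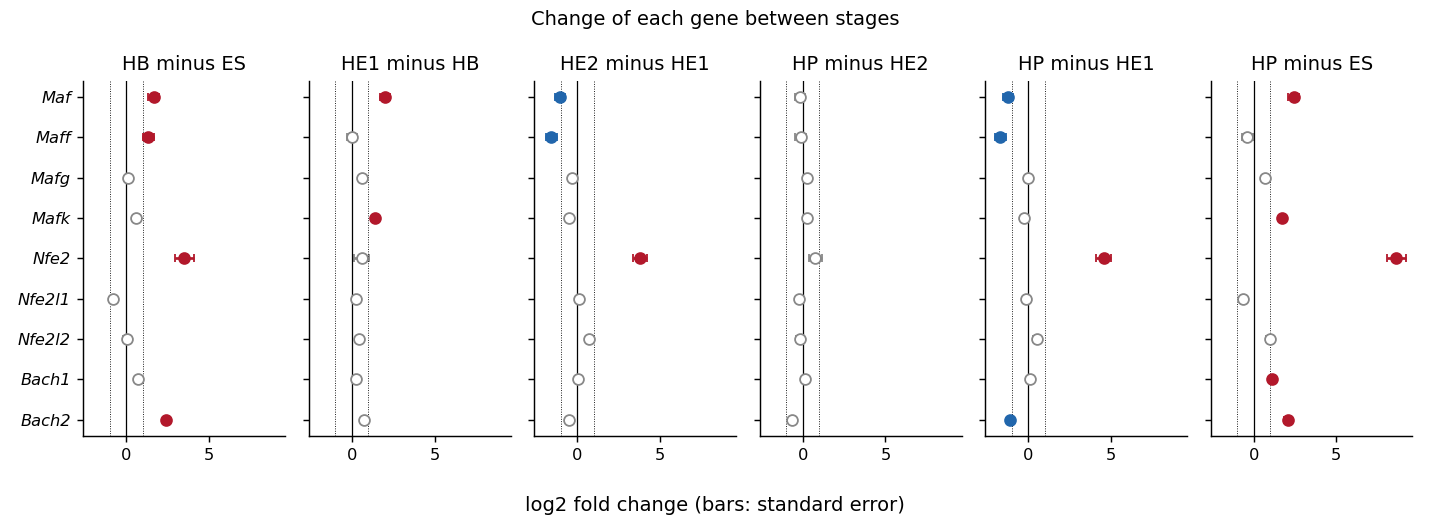
Log2 fold change of each gene in 6 comparisons of stages, with its standard error. Filled red points were called higher in the later stage, filled blue points lower, and open points were not called. Dotted lines mark 2-fold. Nfe2 has the largest change in 5 of the 6 panels (Maf in HE1 minus HB), and no point is filled for HP minus HE2.

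Set side by side per kilobase of exon, the CNC and BACH genes changed places. In ES, Nfe2l1 held 69.4% ± 0.387 (SD, n = 2) of their summed level, Nfe2l2 17.4% ± 0.111, Bach1 12.0% ± 0.203, Bach2 1.00% ± 0.117, and Nfe2 0.155% ± 0.0453. In HP, Nfe2 held 36.8% ± 5.18, more than Nfe2l1 with 25.9% ± 1.32, Nfe2l2 with 19.7% ± 0.944, and Bach1 with 15.2% ± 2.70, and Bach2 held 2.42% ± 0.221. As shares of raw counts, not divided by length, the first 2 changed places in HP, with 24.8% for Nfe2 and 31.8% for Nfe2l1. In between, the share of Nfe2 was 2.18% ± 0.265 and 2.46% ± 1.15 for HB and HE1 and reached 23.2% ± 7.37 in HE2, and that of Bach2 was largest in HE1 with 8.34% ± 0.709. The ratio of Nfe2 to Bach1, an activator and a repressor that both pair with small MAF proteins, was 0.0157 and 0.0101 for the ES libraries, 0.103 and 0.0856 for HB, 0.15 and 0.0754 for HE1, 1.07 and 2.12 for HE2, and 3.04 and 1.94 for HP, so that per length it crossed 1 between HE1 and HE2. In the stage means of raw-count shares, Nfe2 was still below Bach1 in HE2 (14.7% against 19.6%) and above it in HP (24.8% against 21.1%). This order held in replicate 1 of both stages. In replicate 2 of both it was reversed, with Nfe2 above Bach1 in HE2 and below it in HP, so the raw counts do not settle the order at either stage. Bach1 exceeded Bach2 throughout, by 12.9-fold and 11.2-fold in ES and by 2.80-fold and 2.47-fold in HE1. The summed level of the CNC and BACH genes relative to that of the small MAF genes was lowest in HE1, at 1.77 and 1.21, against 2.78 and 2.94 for ES, 1.64 and 1.99 for HB, 2.56 and 3.79 for HE2, and 3.33 and 2.43 for HP, so that the HB and HE1 libraries overlapped. The small MAF genes together exceeded the large MAF gene Maf by 37.1-fold or more in all libraries.

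Other genes of the families were read beside the 9. The large MAF gene Mafa was at 6.39 and 5.42 CPM in ES, 0.463 and 0.732 CPM in HB, 0.715 and 5.52 CPM in HE1, and 0.427 CPM or less afterwards. Its level in HE1 replicate 2 was far above that in HE1 replicate 1. Mafa fell from ES to HB (log2 fold change -3.29 ± 0.75, edgeR adjusted p = 0.00554), a call lost without HB replicate 1 (adjusted p = 0.0535), while its rise from HB to HE1 (2.38, edgeR adjusted p = 0.0325) was 0.25 without HE1 replicate 2 (adjusted p = 0.751), and its falls from HE1 to HE2 and from HE1 to HP were not called without that library either (-0.82 and -1.10). Nfe2l3, a CNC gene known from placenta and early embryos, was at 2.89 and 3.41 CPM in ES, 0.132 and 0.197 CPM in HB, and at 1 count or none in each later library. The retinal gene Nrl stayed at 0.231 CPM or less and was not tested. In the first stage, therefore, Mafa was above Maf in CPM per kilobase (2.33 and 1.98 against 0.101 and 0.125), and from HB on Maf was above Mafa in all libraries but HE1 replicate 2, where they were at 1.74 and 2.01.

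The proteins that control NRF2 and BACH1 were followed as a list of 8 genes. Keap1, the adaptor through which NRF2 is degraded, was at 28.5 and 27.7 CPM in ES, 37.8 and 40.6 CPM in HB, 67.5 and 49.6 CPM in HE1, 72.6 and 87.7 CPM in HE2, and 89.2 and 79.1 CPM in HP. Its libraries did not overlap between neighbouring stages up to HE2, no single step was called, and from ES to HP it rose (log2 fold change 1.58 ± 0.18, edgeR adjusted p = 3.86e-05). Of the list, 3 genes rose from ES to HP and 0 fell, against 16.7% and 21.9% of all tested genes (median log2 fold change 0.90, against -0.01 over all tested genes), among them Sqstm1 (1.29), whose product p62 sequesters KEAP1. Sqstm1 was also the 1 gene of the list called from HB to HE1 (1.43, edgeR adjusted p = 0.00115, and 1.51 without HE1 replicate 2), and Fbxo22, part of a ligase for BACH1, the 1 gene called from ES to HB (-1.15, adjusted p = 5.98e-05). Of all tested genes, 12.7% rose from HB to HE1 and 17.3% fell from ES to HB. Between HE1 and HE2, HE2 and HP, and HE1 and HP, edgeR, limma-voom, and DESeq2 called 0 of the 8, with 2, 0, and 3 genes at an unadjusted p under 0.05. Of the 22596 tested genes, 7991, 1783, and 8721 were under it in edgeR. At these steps in turn, edgeR called 3.26% of them higher and 5.39% lower, 0% in either direction, and 5.35% higher and 11.2% lower. Of 4 genes that process NRF1, Ngly1, the enzyme that removes its sugar chains, rose from HB to HE1 (1.04, edgeR adjusted p = 0.00504, and 1.30 without HE1 replicate 2), 1 of 4 where 12.7% of all tested genes rose (median 0.68, against 0.04). Ngly1 and Vcp rose from ES to HP (2.12 and 1.10), 2 of 4 where 16.7% of all tested genes rose (median 0.87, against -0.01), and in the other 4 comparisons the 3 tools called 0 of the 4, with 2 genes at an unadjusted p under 0.05 from ES to HB, 3 from HE1 to HE2, 0 from HE2 to HP, and 3 from HE1 to HP. Of the 22596 tested genes, 10889, 7991, 1783, and 8721 were under it at these steps. From ES to HB edgeR called 11.5% of all tested genes higher and 17.3% lower.

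Of 24 antioxidant and iron genes known as targets of NRF2 or BACH1, 1 rose and 7 fell from ES to HB, where 11.5% of all tested genes rose and 17.3% fell (median log2 fold change -0.56, against 0.00 over all tested genes). The deepest falls were those of Abcc4 (-4.00), an exporter of organic anions, and of the quinone reductase Nqo1 (-3.66), and Osgin1 rose. From HB to HE1, 6 rose and 0 fell, against 12.7% and 8.19% of all tested genes (median 0.67, against 0.04). The cystine transporter gene Slc7a11 went from 0.397 and 0.423 CPM in HB to 11.3 and 10.9 CPM in HE1 (4.75 ± 0.29, edgeR adjusted p = 5.51e-06), and Nqo1 from 1.22 and 0.676 to 13.0 and 10.9 CPM (3.66 ± 0.39, edgeR adjusted p = 0.000107). The 2 HE1 libraries were close for both genes. Without HE1 replicate 2, 9 of the 24 rose and 1, Abcc4, fell (-1.73), where 9.6% of all tested genes rose and 7.22% fell. From HE1 to HE2, 1 of the 24 rose and 1 fell, where 3.26% of all tested genes rose and 5.39% fell (median 0.47, against -0.08). Blvrb, which reduces biliverdin and flavins, rose (1.02, edgeR adjusted p = 0.0357) and Hmox1, the heme oxygenase that BACH1 represses, fell (-1.21, edgeR adjusted p = 0.0394). Both changes were under 2-fold without HE1 replicate 2 (0.73 and -0.84). Hmox1 was at 77.1 and 123 CPM in HE1, 59.3 and 26.9 CPM in HE2, and 29.2 and 39.5 CPM in HP. Between HE2 and HP edgeR called 0 of the 24, with 2 at an unadjusted p under 0.05, against 7.89% of all tested genes, and limma-voom and DESeq2 each called 1 higher. From HE1 to HP, 4 rose and 1 fell, against 5.35% and 11.2% (median 0.60, against -0.02). When HE1 replicate 2 was left out, 4 rose and 0 fell in edgeR, against 3.87% and 6.86% of all tested genes, and the genes were not the same, since Hmox1 (-1.17) and Osgin1 (1.29) were no longer called and Abcc4 was (1.04). Of the 24, 9 rose and 3 fell from ES to HP, against 16.7% and 21.9% (median 0.34, against -0.01). Slc7a11 reached 42.1 and 60.0 CPM in HP from 0.355 and 0.316 CPM in ES (7.22 ± 0.30, edgeR adjusted p = 1.35e-07).

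The 5 genes listed as targets of NF-E2 in platelets rose over the course. From ES to HP all 5 were called higher (median log2 fold change 6.15), the largest rises being those of Rab27b, which acts in granule release, and of Tubb1, the tubulin of platelets. Rab27b went from 0.142 and 0.287 CPM in ES and 2.05 and 2.39 CPM in HB to 49.9 and 32.9 CPM in HE1, 119 and 187 CPM in HE2, and 155 and 140 CPM in HP. Tubb1 was at 0.124 and 0.0861 CPM in ES, 0.298 and 0.676 CPM in HB, 2.48 and 1.22 CPM in HE1, 11.5 and 11.9 CPM in HE2, and 27.5 and 19.4 CPM in HP. Both rose at each step to HE2. Rab27b rose most from HB to HE1 (4.21 ± 0.30, edgeR adjusted p = 1.27e-05, and 4.49 without HE1 replicate 2). At that step Nfe2 was not called (0.58 ± 0.44), and its change was 1.13 without HE1 replicate 2. The part of Nfe2 in the rises of these genes was not tested. Tubb1 rose by 1.88 ± 0.45 from HB to HE1 and by 2.68 ± 0.40 from HE1 to HE2 (edgeR adjusted p = 0.0104 and 0.00417). The steps of Tubb1 without HE1 replicate 2 were 2.32 and 2.24, in the other order. The list had 2 genes higher from ES to HB, 3 from HB to HE1, 3 from HE1 to HE2, and 4 from HE1 to HP, and 0 lower in each, where 11.5%, 12.7%, 3.26%, and 5.35% of all tested genes were higher. Leaving out HE1 replicate 2, the counts for the last 3 were 3, 2, and 4, against 9.6%, 1.56%, and 3.87%. Between HE2 and HP the 3 tools called 0 of the 5, with 2 at an unadjusted p under 0.05 in edgeR, against 7.89% of all tested genes. The 8 globin genes, at whose loci NF-E2 binds, had 1 gene higher from ES to HB, 7 from HB to HE1, 5 from HE1 to HE2, 7 from HE1 to HP, and 8 from ES to HP, and 0 lower, against the same shares and 16.7% from ES to HP. Without HE1 replicate 2 the counts were 5 from HB to HE1, 1 from HE1 to HE2, and 4 from HE1 to HP, against 9.6%, 1.56%, and 3.87%. The embryonic Hbb-bh1 went from 279 and 136 CPM in HE1 to 1230 and 1060 CPM in HE2 (2.46 ± 0.33, edgeR adjusted p = 0.00254) and to 2620 and 1550 CPM in HP. Between HE2 and HP edgeR called 0 globin genes, with 3 of 8 at an unadjusted p under 0.05, against 7.89% of all tested genes, while limma-voom called 1 and DESeq2 2. Adult globin genes are near-identical copies of each other, and their separate counts are uncertain.

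**Figure D4:**
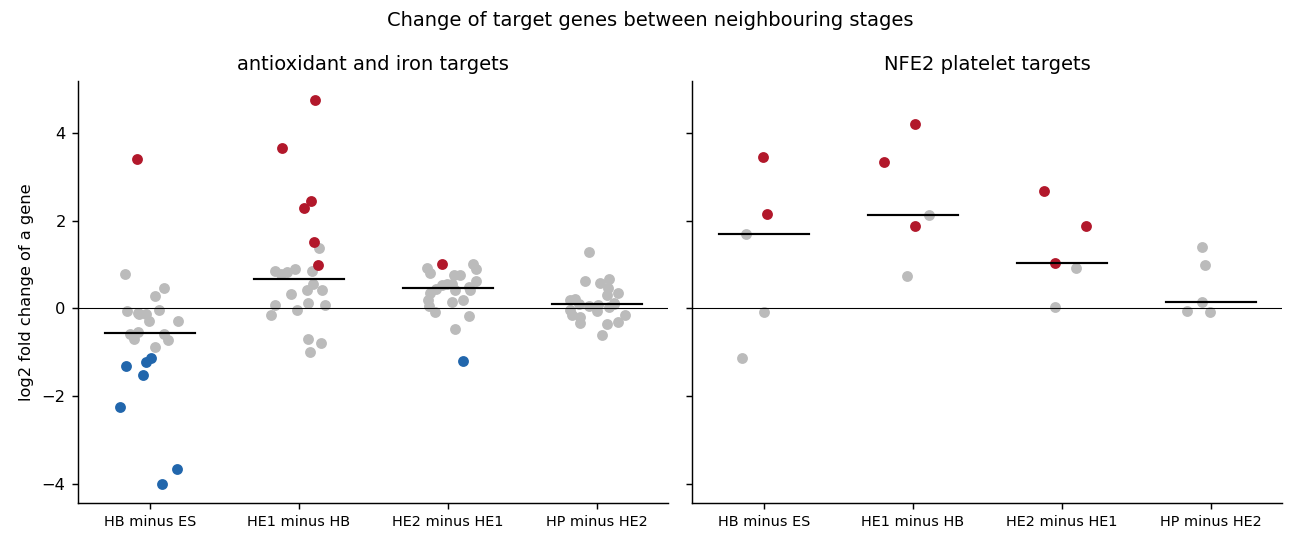
Log2 fold change of each of the 24 antioxidant and iron genes (left) and the 5 NF-E2 platelet targets (right) between neighbouring stages, on a linear axis. Red points were called higher in the later stage, blue points lower, and grey points were not called, and lines are medians. The antioxidant median is -0.56 for HB minus ES and 0.67 for HE1 minus HB, and no point is called for HP minus HE2.

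Patterns over the libraries were compared by Pearson correlation of log2 CPM among 16272 genes with a mean of at least 1 CPM. The values describe 10 libraries that share 5 stages, so that high values are common among genes with stage-dependent levels. The 3 genes most like Nfe2 were Gfi1b, a blood transcription factor (r = 0.998), the myeloperoxidase gene Mpo (0.997), and Micall2 (0.995). For Maf they were Sdccag8 (0.990), Tmcc1 (0.988), and Aff2 (0.986), for Bach1 Jak2 (0.990), Slu7 (0.988), and Map2k5 (0.988), and for Bach2 Phc2 (0.997), Gimap8 (0.995), and the signalling inhibitor gene Smad6 (0.992). Among the genes most like the small MAF genes were Ebf4 and Tnrc18 in the case of Maff (0.989 and 0.985), Gm43145, Atxn7l1, and Gm37760 in that of Mafg (0.988 to 0.975), and Inf2 and Sox6 in that of Mafk (0.985 and 0.983). Nfe2l1 was most like Rnf125 (0.980), Nceh1 (0.979), and the chaperone gene Canx (0.978), and Nfe2l2 most like Hsd17b4 (0.996), Bmi1 (0.989), and Ugcg (0.986). Without HE1 replicate 2 these values were all 0.968 or higher. Among the 9 genes, r was 0.965 for Mafg and Mafk, 0.945 for Maf and Mafk, 0.920 for Maf and Bach2, 0.896 for Nfe2 and Nfe2l2, and 0.835 for Maf and Bach1, and without HE1 replicate 2 it was 0.957, 0.937, 0.937, 0.896, and 0.975, so that the most alike pair changed from Mafg and Mafk to Maf and Bach1. With all libraries Maff was little like Mafg (0.0029) or Mafk (0.0279).

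The study links Bach2 and Maf to enhancers it lists as primed before the ES-to-HB and the HB-to-HE step. Those lists were made with these same libraries, so the rises of Bach2 and Maf at these steps are not independent evidence.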

How the data were processed

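Nuclear RNA-seq of 10 libraries was analysed, 2 for each of 5 stages that were taken from the labels. The authors removed rRNA reads, trimmed with Trimmomatic, used HISAT2 (v2.2.1) for alignment to the mm10 genome, and deposited raw counts of read pairs per Ensembl (release 102) gene from featureCounts (v2.0.1), stranded, with a pair over several genes counted for each. The deposited matrix holds 1 score per gene and stage, the authors' mean expression, and served for the order of stages. Counts were fitted in edgeR (v4.0.16, R v4.3.3) with filterByExpr, TMM (factors 0.9545 to 1.132), and stage as the only term on all 10 libraries (5 residual degrees of freedom). A count of 3 equals 0.0532 to 0.126 CPM and covers counting error only. All 9 genes, their relatives, and the lists of regulators, targets, and markers are named by fixed rules (at most 2 called rises and 2 falls per list, 3 most similar genes), and some genes these rules name are not reported here. The Pearson correlation of log2 CPM (prior count 2) between libraries of a stage was 0.967 to 0.994. Alternatives were limma-voom (v3.58.1), DESeq2 (v1.42.0), total counts, no filter, only the 4 libraries compared, a replicate block, other fold thresholds, raw-count shares, and each library left out. Fits were tested on simulated data. The genes were taken by name, and they and the lists were chosen with earlier results of these data known. Of the 55487 gene IDs, 55157 had a symbol in the matrix or in GENCODE. Python (v3.11.15) with pandas (v2.3.3) was used for summaries.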

Additional observations from a re-analysis of the deposited data

How the results depend on the processing

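The number of the 9 genes called was within 1.5 times the value given under limma-voom, DESeq2, total counts, no filter, and the replicate block in all 6 comparisons. With no fold threshold it was 7 from ES to HB, 4 from HB to HE1, 5 from HE1 to HE2, and 8 from ES to HP, and with a 4-fold threshold 2, 1, 1, and 3, and 1 from HE1 to HP. From HE1 to HE2 it was 1 with only the 4 libraries compared, and 1 to 4 with a library left out in turn, the lowest value being that without HE1 replicate 2. Same-numbered libraries were not treated as paired, since the labels give no pairing. The correlations of their deviations ran from -0.316 to 0.213, and with 2 libraries per stage they cannot settle whether libraries were paired. The replicate block moved the count for HE1 to HE2 from 3 to 2, since the fall of Maf (-1.04, edgeR adjusted p = 0.0718) was lost. Of the 10 fits with a library left out, that fall was still called only in the fit without HE1 replicate 1 (range -1.32 to -0.72). The fall of Maf from HE1 to HP was also lost without HP replicate 1 (-1.17) or HP replicate 2 (-1.28), and Nfe2l2 passed 2-fold from ES to HP with total counts (1.03) and without HP replicate 2 (1.06). As shares of raw counts, Maff held 7.29%, 14.8%, 9.25%, and 3.23% in ES, HB, HE1, and HP, Mafg 82.6%, 72.9%, 70.7%, 77%, and 77.9% and Mafk 10.2%, 12.3%, 20.1%, 18.9%, and 18.9% in ES to HP, and Nfe2 0.0875%, 1.18%, 14.7%, and 24.8% in ES, HB, HE2, and HP. Exon length is what these alternatives leave out. In the 6 comparisons counted, signs turned only in differences that were not called. Maff from HB to HE1 was 0.00 under limma-voom and the replicate block, 0.04 with total counts, and 0.02 with only the 4 libraries, and Maff from HE2 to HP 0.00 under limma-voom. Nfe2l2 from ES to HB was -0.01 under DESeq2, and Bach1 from HE1 to HE2 -0.07 with total counts. With each library left out, the ranges of the differences that turned were -0.13 to 0.02 for Maff from HB to HE1 and -0.63 to 0.64 from HE2 to HP, -0.11 to 0.06 for Mafg from HE1 to HP, -0.30 to 1.13 for Nfe2 from HB to HE1, -0.03 to 0.26 and -0.25 to 0.04 for Nfe2l1 from HE1 to HE2 and to HP, -0.05 to 0.10 for Nfe2l2 from ES to HB, and -0.17 to 0.25 and -0.05 to 0.38 for Bach1 from HE1 to HE2 and to HP. The cause was not tested. In the authors' matrix 7 of the 9 genes had the same order of stages, and Maff and Bach1 did not. Differences under 2-fold were not called by rule, also where their adjusted p was under 0.05.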

Other observations

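Marker lists of the cell types along the course were read beside the 9 genes. Kdr among the mesoderm, Tek among the endothelial, and Itga2b among the megakaryocyte markers encode the sort antigens FLK1, TIE2, and CD41. Cells were selected by these antigens, so changes of Kdr into HB, of Tek into HE1 and HP, and of Itga2b into HE2 are not independent evidence. From ES to HB, all 5 ES cell markers fell (median log2 fold change -5.82, against 0.00 over all tested genes) and all 6 mesoderm markers rose (median 6.61), and 3 of 5 early blood markers rose and 1 fell, where 11.5% of all tested genes rose and 17.3% fell. From HB to HE1, 5 of 6 endothelial markers rose and 0 fell (median 3.18, against 0.04), and 4 of the 6 mesoderm markers fell, where 12.7% of all tested genes rose and 8.19% fell, with the same counts without HE1 replicate 2 (9.6% and 7.22%). From HE1 to HE2, the step at which Nfe2 rose, all 5 early blood markers (median 3.57, against -0.08), all 6 erythroid markers (median 2.22), and 3 of 6 megakaryocyte markers (median 2.85) rose, against 3.26% of all tested genes. With HE1 replicate 2 left out, 5 early blood, 4 erythroid, and 2 megakaryocyte markers rose at that step, against 1.56%. From HE1 to HP, all 6 endothelial markers fell (median -2.84, against -0.02), and 2 of the 4 tested macrophage markers rose and 1 fell, against 5.35% of all tested genes higher and 11.2% lower. Leaving out HE1 replicate 2, 6 endothelial markers fell, and 1 macrophage marker rose and 1 fell, against 3.87% and 6.86%. Of the 4 tested B lymphoid markers 3 fell from ES to HP and 0 rose, against 21.9% and 16.7% of all tested genes. Of the 4 genes for antigens used in the sorts, 2 rose and 2 fell from HE1 to HP, and without HE1 replicate 2, 0 rose and 2 fell, against the shares for this step given above.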
